A study of Mus musculus with 4 samples.

Results

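The genes described here are 9 ligands and receptors of the TNF superfamily: Tnf, Tnfsf9, Tnfsf12, Tnfsf13, Tnfsf13b and Tnfsf14 among the ligands, and Tnfrsf1a, Tnfrsf1b and Cd40 among the receptors. They were taken by gene name from the deposited table of read counts, in which they are 9 of 54532 genes. The samples were peritoneal macrophages of WT mice, and the study asked what the activity of the aryl hydrocarbon receptor (AHR) does in macrophages of the niche that forms before breast cancer spreads. Cells were kept in normal medium (NM, 0% 4T1-CM) or in medium with 30% 4T1-CM, the conditioned medium of the mouse mammary carcinoma line 4T1, and each medium held either DMSO, the solvent, or 10 µM CH223191, an AHR antagonist. Each of the 4 combinations was sequenced as 1 library of bulk RNA, so no replicate shows how far cultures of the same kind vary. The study's methods describe macrophages drawn from BALB/c mice after a thioglycollate injection, which brings recruited cells into the peritoneum, and a pre-treatment with DMSO or CH223191 before the 4T1-CM was added. The time in 4T1-CM, the age of the animals behind these libraries and whether the 4 cultures came from the same animals are not given in the labels.

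TNF superfamily ligands are type II membrane proteins that bind as trimers to receptors with cysteine-rich extracellular repeats. Receptors with a death domain, such as TNFR1 (Tnfrsf1a), recruit TRADD and can lead to NF-kB activation or cell death, whereas TNFR2 (Tnfrsf1b) and CD40 bind TRAF proteins directly. Macrophages are a main source of TNF, and they carry both of its receptors. Many ligands are cut from the membrane by proteases, so that the mRNA level alone does not give the amount of soluble protein.

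Reads per library summed to between 15535405 and 17557127, and 13715 genes had at least 10 reads in at least 1 library. All values are CPM (counts per 1e6 reads) scaled between libraries by the TMM method, and log2 ratios were taken after adding 0.5 reads. Each ratio carries a 95% interval by the exact Clopper-Pearson method, from the way a gene's reads divide between 2 libraries. Such an interval reflects counting error alone and says nothing of how separate cultures differ. A gene was counted as changed from a 2-fold difference. The 8 macrophage markers examined were all detected, with a summed level of 14303 CPM in NM with DMSO, 18500 CPM in NM with CH223191, 40651 CPM under 4T1-CM with DMSO and 43449 CPM under 4T1-CM with CH223191. Lyz2 carried most of this sum, with 11888 CPM in NM with DMSO and 15185 CPM in NM with CH223191. Between the same libraries Cd68 (1145.8 and 2054.7 CPM), Fcgr1 (16.0 and 22.1 CPM), Mertk (54.0 and 68.1 CPM) and Itgam (159.4 and 175.4 CPM) were higher too. Csf1r (507.6 and 509.6 CPM) was level, and Adgre1 (257.1 and 246.0 CPM) and Cd14 (274.7 and 239.4 CPM) did not rise. Markers of other cell types were mostly low. Ly6g, Retnlg and S100a9 of the 9 neutrophil markers, and Cd3d, Cd3e, Cd3g, Cd8a and Ncr1 of the 7 T and NK cell markers, had 0 reads in all 4 libraries. The rest of these lists was detected. In the order NM with DMSO, NM with CH223191, 4T1-CM with DMSO and 4T1-CM with CH223191, Csf3r had 929, 959, 1521 and 1759 reads. S100a8 had 99, 190, 560 and 412 reads, and Mmp8 35, 21, 2142 and 759. Cxcr2 (12, 9, 2 and 0), Camp (0, 4, 4 and 6), Ltf (2, 4, 1 and 1), Cd4 (11, 6, 10 and 3) and Klrb1c (0, 0, 6 and 2) had few. The share of mitochondrial reads was 0.633% in NM with DMSO, 1.17% in NM with CH223191, 1.76% under 4T1-CM with DMSO and 1.79% under 4T1-CM with CH223191. In bulk RNA, more cells of a type and more RNA per cell cannot be told apart.

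The TNF ligand and TNFR2, whose levels were higher in 4T1-CM in similar proportion, are the pair for which promoter sequence is shown. RefSeq windows of GRCm38.p6 were at hand for 6 of the 9 genes (not for Tnfsf9, Tnfsf12 or Cd40). The 250 bases before the start of each gene are printed 5′ to 3′ on the strand of the gene, with matches to the motifs searched in capitals. The Tnf stretch is chr17:35202008-35202257 and the Tnfrsf1b stretch is chr4:145246871-145247120, both on the minus strand.
Tnf: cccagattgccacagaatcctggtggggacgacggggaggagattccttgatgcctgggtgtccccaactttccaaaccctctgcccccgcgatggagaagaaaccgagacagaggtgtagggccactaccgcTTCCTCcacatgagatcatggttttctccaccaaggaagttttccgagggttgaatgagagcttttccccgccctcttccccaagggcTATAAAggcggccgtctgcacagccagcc
Tnfrsf1b: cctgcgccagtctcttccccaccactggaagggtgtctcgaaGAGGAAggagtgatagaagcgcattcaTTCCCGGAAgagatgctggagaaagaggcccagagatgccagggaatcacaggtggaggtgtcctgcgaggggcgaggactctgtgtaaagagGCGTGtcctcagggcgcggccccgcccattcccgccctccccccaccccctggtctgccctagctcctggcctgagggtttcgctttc
The motifs were searched on both strands in the windows from 250 bases before to 50 bases after the start. They were TATAAA (the TATA box), GCGTG (the core to which AHR binds with its partner), TTCNNNGAA (the STAT palindrome), TGANTCA (the AP-1 site), GAGGAA (the core read by PU.1) and the NF-kB consensus. In the Tnf window TATAAA began at position -29 from the start and GAGGAA, on the opposite strand, at -117. The Tnfrsf1b window held no TATAAA, but GCGTG at -88, TTCNNNGAA at -181 and GAGGAA at -208, and none of these matches overlap. Genes that were lower in 4T1-CM held some of the same letters: the Tnfsf13 window had GCGTG at -98, and the Tnfrsf1a window TTCNNNGAA at -244. The Tnfsf13 window also had TGANTCA at -133, which neither the Tnf nor the Tnfrsf1b window held. TGANTCA was also in the windows of Tnfsf13b and Tnfsf14, and GCGTG and GAGGAA in that of Tnfsf14. Of 32851 windows of the same length in the RefSeq table, 13.6% held TATAAA, 32.4% GCGTG, 8.30% TTCNNNGAA, 7.81% TGANTCA, 28.3% GAGGAA and 8.46% the NF-kB consensus. The letters of the NF-kB consensus were in 0 of the 7 windows of these genes. A match is a description of letters and not a binding site.

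Levels of the 9 genes covered a wide range. Per length, as FPKM (CPM per kilobase of the gene), Tnfrsf1b had the highest level in every library, from 159.5 FPKM in NM with CH223191 to 324.2 FPKM in 4T1-CM with DMSO. Tnfrsf1a came next with 49.0 to 75.5 FPKM, followed by Tnfsf12 with 24.5 to 46.6 FPKM. These 3 genes kept their order in all 4 libraries, and their counting intervals did not overlap. FPKM used the full gene length, but 48.3% of Tnfsf12 exonic bases and 60.0% of Tnfsf13 exonic bases are shared with other genes. The ranks of Tnfsf12 and Tnfsf13 thus depend on how shared reads were assigned, which is not known. Tnf came after the 3 highest genes in 3 libraries. It had 9.45 FPKM in NM with DMSO, 17.7 FPKM under 4T1-CM with DMSO and 14.0 FPKM under 4T1-CM with CH223191. In NM with CH223191 Tnfsf13 stood above it, with 11.1 FPKM (interval 9.89 to 12.5) against 8.82 FPKM (7.72 to 10.0), and these intervals overlap slightly. Tnfsf13 otherwise followed with 5.94 FPKM in NM with DMSO, and with 2.69 and 1.84 FPKM in 4T1-CM its interval overlapped that of Tnfsf9. Tnfsf13b, Cd40 and Tnfsf9 were each under 3 FPKM in every library. Their intervals overlapped in NM with DMSO, where they had 0.402, 0.203 and 0.146 FPKM, while in 4T1-CM with DMSO Tnfsf9 (2.83 FPKM, 2.18 to 3.62) lay above Cd40 (1.43 FPKM, 1.14 to 1.76) and Cd40 above Tnfsf13b (0.599 FPKM, 0.469 to 0.754). Tnfsf14, which encodes LIGHT, a ligand of HVEM (Tnfrsf14) and of the lymphotoxin-beta receptor, was close to undetected. It had 0 reads in NM with DMSO, 2 in NM with CH223191, 2 under 4T1-CM with DMSO and 0 under 4T1-CM with CH223191. A count of 0 allows up to 3 reads, or 0.188 CPM in NM with DMSO and 0.185 CPM in 4T1-CM with CH223191, and no fold is given for this gene.

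**Figure D1:**
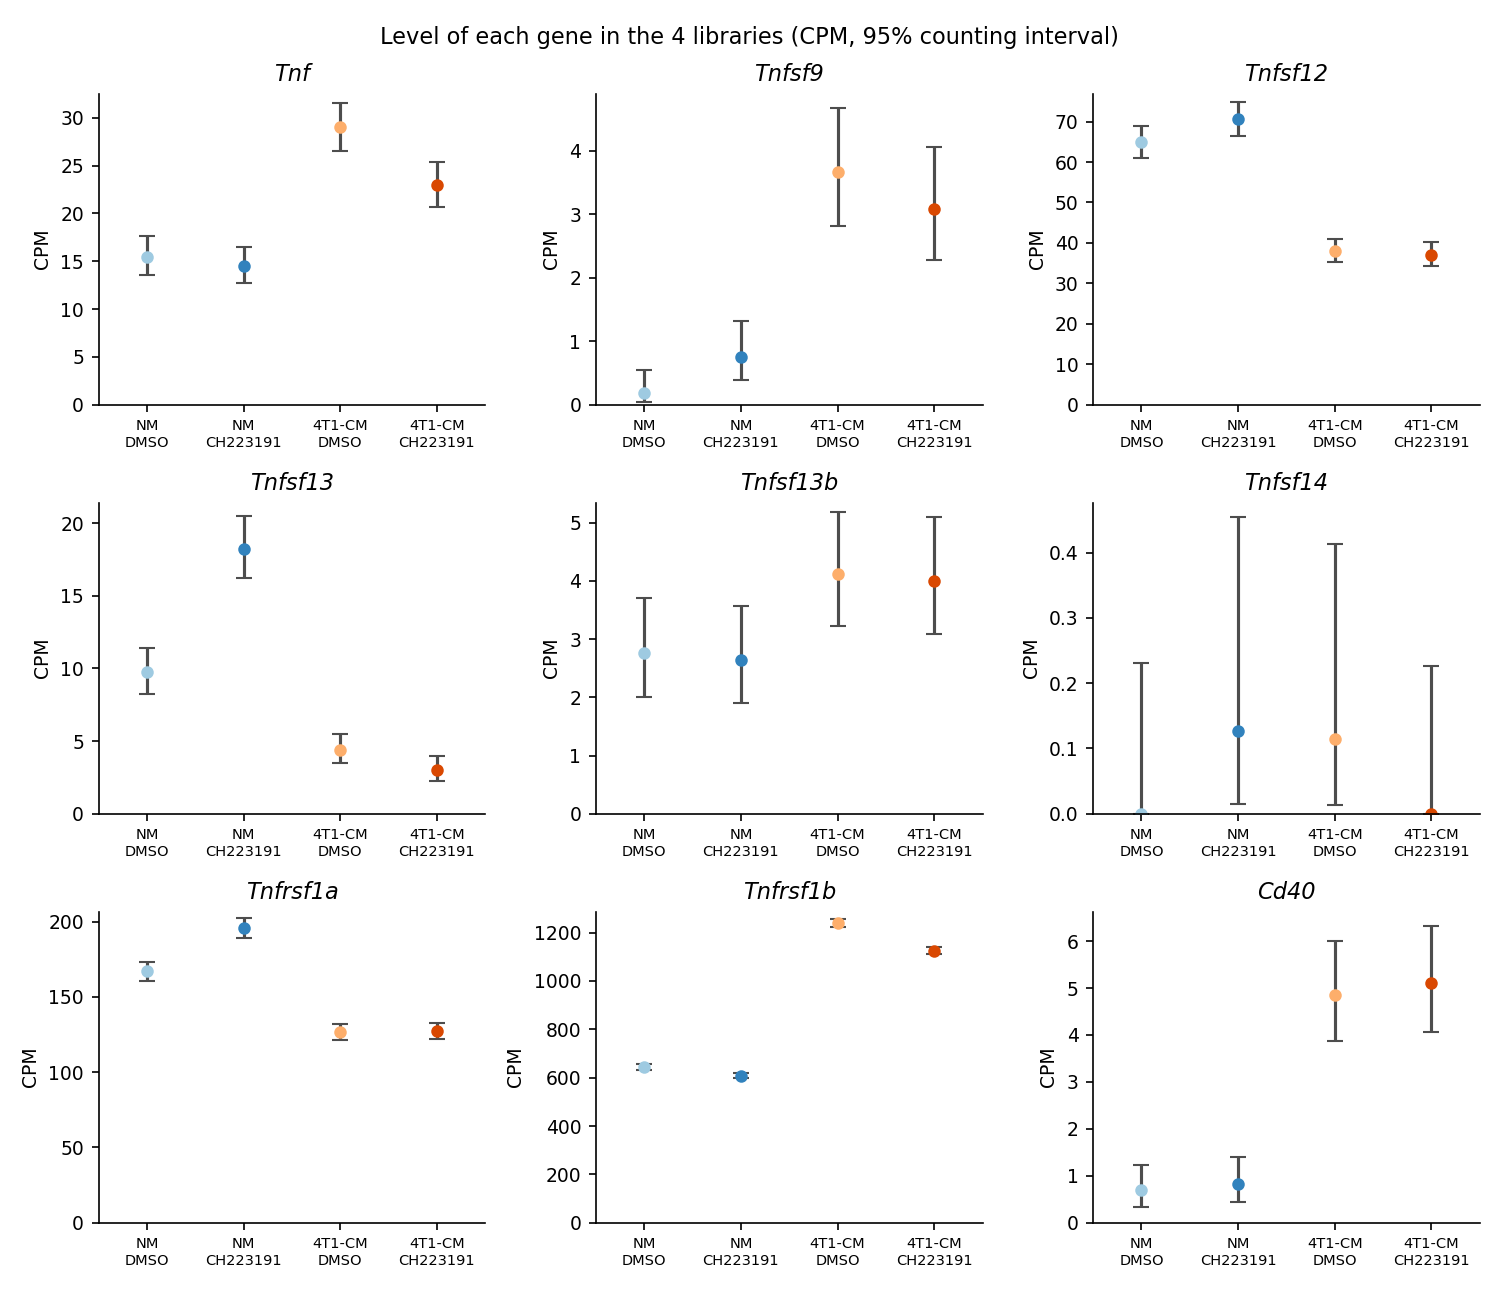
Level of each of the 9 genes in the 4 libraries, in CPM on a linear axis from 0; points are single libraries and bars are 95% Poisson counting intervals (hidden by the points for Tnfrsf1b). Tnf, Tnfrsf1b, Tnfsf9, Tnfsf13b and Cd40 lie higher in both 4T1-CM libraries than in both NM libraries, and Tnfsf12, Tnfsf13 and Tnfrsf1a lie lower.

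Under 4T1-CM, which compares tumour-conditioned with normal medium, the 8 genes with enough reads fell into 2 groups. With DMSO, 2 of the 8 (Tnfsf9 and Cd40) were at least 2-fold higher, against 12.2% of all 13715 genes, and 1 (Tnfsf13) was at least 2-fold lower, against 6.11%. With CH223191 the counts were again 2 higher, against 12%, and 1 lower, against 7.86%. The comparisons with DMSO and with CH223191 share no library. The genes at least 2-fold changed in both were Tnfsf9 and Cd40, higher (2 of 8, against 8.19% of all genes), and Tnfsf13, lower (1 of 8, against 3.38%). The median log2 ratio of the 8 genes was 0.74 with DMSO and 0.63 with CH223191, beside 0.01 and 0.02 over all genes. An additive quasi-likelihood fit of edgeR over the 4 libraries, with medium and inhibitor as terms and 1 residual degree of freedom, called 4 of the 8 higher in 4T1-CM (Tnf, Tnfsf9, Tnfrsf1b and Cd40), against 16.4% of all genes, and 3 lower (Tnfsf12, Tnfsf13 and Tnfrsf1a), against 16.2%. In this fit a response to 4T1-CM that differs between DMSO and CH223191 counts as error, and its adjusted p-values rest on 4 libraries.

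**Figure D2:**
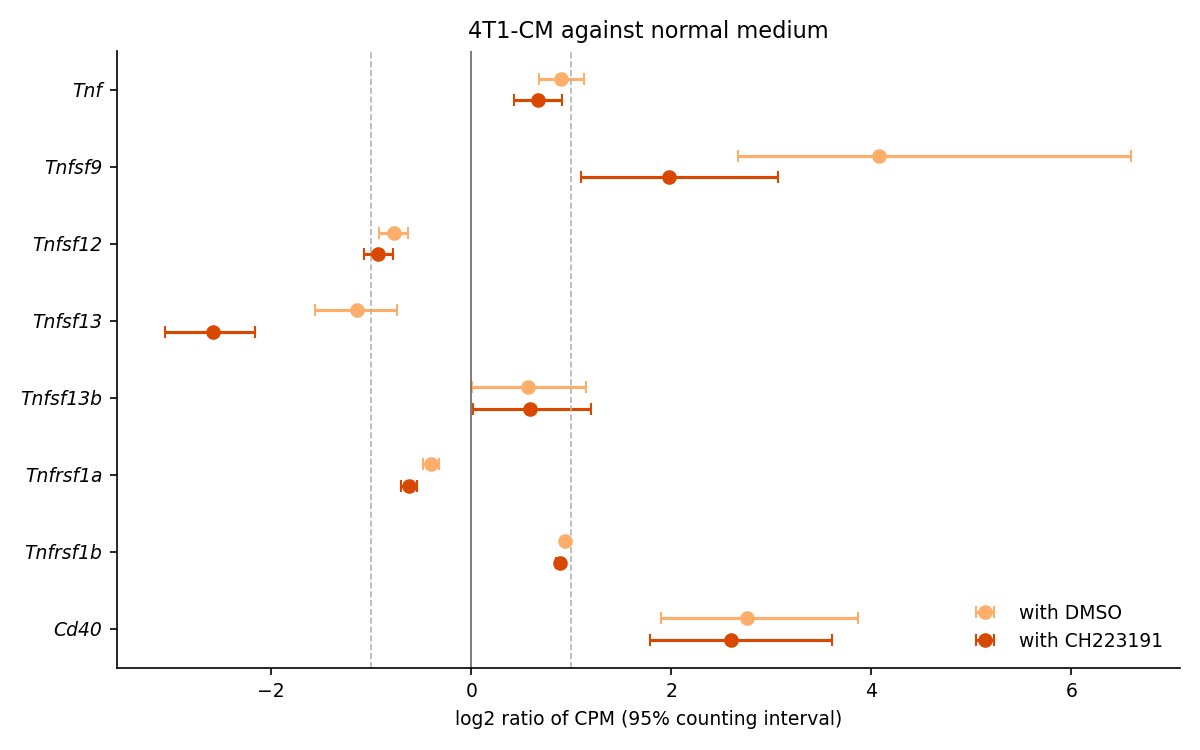
Log2 ratio of CPM in 4T1-CM over normal medium for the 8 genes with enough reads, with DMSO (light) and with CH223191 (dark); bars are 95% counting intervals and dashed lines mark 2-fold. Tnfsf9 and Cd40 lie beyond 2-fold on the higher side and Tnfsf13 on the lower side in both comparisons.

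Tnf, the founding ligand of the family, had 247 reads (15.5 CPM) in NM with DMSO, 230 (14.5 CPM) in NM with CH223191, 507 (29.0 CPM) under 4T1-CM with DMSO and 373 (23.0 CPM) under 4T1-CM with CH223191. Both 4T1-CM libraries lay above both NM libraries, short of 2-fold. The log2 ratio was 0.90 with DMSO (0.68 to 1.13) and 0.67 with CH223191 (0.43 to 0.91), and the additive edgeR fit gave 0.79 with an adjusted p = 0.00304. The gene lies on chr17:35199381-35202007 of GRCm38, on the minus strand, and shares no exonic base with another gene.

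Tnfrsf1b, which encodes TNFR2, the receptor that prefers membrane-bound TNF, followed the same pattern at a far higher level. It had 10287 reads (645.3 CPM) in NM with DMSO, 9683 (608.9 CPM) in NM with CH223191, 21670 (1237.9 CPM) under 4T1-CM with DMSO and 18293 (1126.0 CPM) under 4T1-CM with CH223191. With so many reads the counting interval was narrow: the log2 ratio under 4T1-CM was 0.94 with DMSO (0.91 to 0.97) and 0.89 with CH223191 (0.85 to 0.92), with an adjusted p = 0.000224 in the additive edgeR fit. Tnfrsf1a, which encodes TNFR1, the death domain receptor, moved the opposite way. It had 2663 reads (167.0 CPM) in NM with DMSO, 3112 (195.7 CPM) in NM with CH223191, 2221 (126.9 CPM) under 4T1-CM with DMSO and 2068 (127.3 CPM) under 4T1-CM with CH223191. Its log2 ratio was -0.40 with DMSO (-0.48 to -0.32) and -0.62 with CH223191 (-0.70 to -0.54), with an adjusted p = 0.0122 in the additive edgeR fit.

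Because TNFR1 and TNFR2 share a ligand, their mRNAs were also compared within each library, where the scaling between libraries has no part. Tnfrsf1b had 2.62 times the reads per base of Tnfrsf1a in NM with DMSO (2.51 to 2.74) and 2.11 times in NM with CH223191 (2.03 to 2.20). The ratio was 6.62 in 4T1-CM with DMSO (6.34 to 6.92) and 6.0 in 4T1-CM with CH223191 (5.74 to 6.29). Both 4T1-CM libraries thus stood far above both NM libraries, and in each medium the library with CH223191 had the lower ratio. Tnfrsf1b lies on chr4:145213463-145246870, on the minus strand, and Tnfrsf1a on chr6:125349362-125362484, on the plus strand, and neither shares exonic bases with another gene. Several marker lists of other cell types moved with the medium. The neutrophil list (4 of 9 genes with enough reads) summed to 67.6 and 74.6 CPM in the NM libraries and to 241.6 and 180.8 CPM in the 4T1-CM libraries. Mmp8, Csf3r and S100a8 were higher in 4T1-CM in both comparisons, while Cxcr2 had 12 and 9 reads in NM and 2 and 0 in 4T1-CM. The fibroblast list (5 of 6) summed to 63.0 and 30.1 CPM in NM and to 149.3 and 127.4 CPM in 4T1-CM, mainly through the collagen genes Col1a1, Col1a2 and Col3a1. Dcn (35, 45, 172 and 139 reads) was higher in 4T1-CM too, while Pdgfra had 91, 49, 83 and 70 reads and Lum 3, 0, 0 and 0. The eosinophil list (1 of 4, Siglecf, with Epx and Prg2 at 0) was lower in 4T1-CM, at 6.17 and 5.79 CPM against 16.2 and 14.4 CPM. The macrophage list stood higher in 4T1-CM, as given above. The part of these lists in the receptor levels was not tested.

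Cd40, a receptor through which T cells activate macrophages, was among the genes with the largest ratios. It had 11 reads (0.690 CPM) in NM with DMSO, 13 (0.817 CPM) in NM with CH223191, 85 (4.86 CPM) under 4T1-CM with DMSO and 83 (5.11 CPM) under 4T1-CM with CH223191. The 4T1-CM libraries did not overlap with the NM libraries, and values within a medium were close. The log2 ratio was 2.76 with DMSO (1.90 to 3.87), or 6.79-fold, and 2.60 with CH223191 (1.79 to 3.61), or 6.06-fold, with an adjusted p = 0.000143 in the additive edgeR fit. Its ligand Cd40lg, a product of activated T cells, had 0 reads in all 4 libraries. Cd40 lies on chr2:165055627-165072948, on the plus strand. Dendritic cell markers, which mark another cell that carries CD40, summed to 1.82 and 1.01 CPM in the NM libraries and to 3.77 and 3.20 CPM in the 4T1-CM libraries (3 of 6 with enough reads, Siglech at 0). Ccr7 (0, 1, 24 and 13 reads) and Clec9a (6, 0, 23 and 13) made this difference, while Zbtb46 (20, 14, 16 and 22) and Xcr1 (3, 1, 3 and 2) did not follow, and their part was not tested.

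Tnfsf9 encodes 4-1BBL, a costimulatory ligand for T cells, and its receptor is Tnfrsf9 (4-1BB). The ligand had 3 reads (0.188 CPM) in NM with DMSO, 12 (0.755 CPM) in NM with CH223191, 64 (3.66 CPM) under 4T1-CM with DMSO and 50 (3.08 CPM) under 4T1-CM with CH223191. Both 4T1-CM libraries lay above both NM libraries. The log2 ratio was 4.08 with DMSO (2.67 to 6.60), with only 3 reads in the lower library, and 1.98 with CH223191 (1.10 to 3.07). The additive edgeR fit gave 2.85 with an adjusted p = 0.00168. The response with CH223191 differed from that with DMSO by -2.25, without added reads, with a counting interval of -4.15 to -0.35. This difference rests on the 3 reads in NM with DMSO and shrinks with a prior count of 5 in place of 0.5, which gave log2 ratios of 3.02 with DMSO and 1.67 with CH223191. The receptor gene went with its ligand: Tnfrsf9 had 0 reads in both NM libraries, 73 under 4T1-CM with DMSO and 62 under 4T1-CM with CH223191. Against a floor of 3 reads per library, the bound on its fold was 22.2 in 4T1-CM with DMSO and 20.2 with CH223191. Its counting intervals, which also allow for error in the 4T1-CM reads, began below these folds, at log2 ratios of 4.14 and 4.00.

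Reads of Tnfsf9, on chr17:57105325-57107757 of the plus strand, cannot be fully told from those of Gm11110, a gene on the opposite strand that shares 192 of its exonic bases (14.9%), because the strand setting of the counting is not given. Gm11110 had 18 reads in NM with DMSO, 8 in NM with CH223191, 108 under 4T1-CM with DMSO and 89 under 4T1-CM with CH223191. It was thus higher in 4T1-CM too, with log2 ratios of 2.42 with DMSO and 3.37 with CH223191. With CH223191 in NM its log2 ratio was -1.12, with an interval of -2.58 to 0.11 that spans 0.

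Tnfsf12 and Tnfsf13 lie side by side on the minus strand of chromosome 11, at chr11:69686250-69695849 and chr11:69682846-69685784. Tnfsf12 encodes TWEAK, a ligand of Fn14 (Tnfrsf12a), and Tnfsf13 encodes APRIL, a survival factor for plasma cells that binds TACI (Tnfrsf13b) and BCMA (Tnfrsf17). Tnfsf12 had 1035 reads (64.9 CPM) in NM with DMSO, 1123 (70.6 CPM) in NM with CH223191, 665 (38.0 CPM) under 4T1-CM with DMSO and 603 (37.1 CPM) under 4T1-CM with CH223191. Both 4T1-CM libraries lay below both NM libraries, and each pair was close together. The log2 ratio was -0.77 with DMSO (-0.92 to -0.63) and -0.93 with CH223191 (-1.07 to -0.78), with an adjusted p = 0.000534 in the additive edgeR fit.

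Tnfsf13 had 155 reads (9.72 CPM) in NM with DMSO, 290 (18.2 CPM) in NM with CH223191, 77 (4.40 CPM) under 4T1-CM with DMSO and 49 (3.02 CPM) under 4T1-CM with CH223191. Here too the 4T1-CM libraries were the lower ones, and NM with CH223191 stood above the rest. The log2 ratio was -1.14 with DMSO (-1.56 to -0.74) and -2.58 with CH223191 (-3.06 to -2.16), that is 0.454 and 0.167 of the level in normal medium, with an adjusted p = 0.000905 in the additive edgeR fit. The difference between these responses, CH223191 minus DMSO and without the added 0.5 reads, was -1.45 on the log2 scale, with a counting interval of -2.04 to -0.86. It has no replicate check.

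Counts at this locus depend on how shared reads were assigned. Tnfsfm13, an annotated read-through gene of Tnfsf12 and Tnfsf13, shares 731 exonic bases with Tnfsf12 and 983 with Tnfsf13, and Tnfsf13os, on the opposite strand, shares 221 with Tnfsf13. In all, 48.3% of the exonic bases of Tnfsf12 and 60.0% of those of Tnfsf13 are shared. Tnfsfm13 had 103, 215, 78 and 62 reads and Tnfsf13os 54, 108, 36 and 60, in the order NM with DMSO, NM with CH223191, 4T1-CM with DMSO and 4T1-CM with CH223191. Both, like Tnfsf13, had most reads in NM with CH223191. Summed over the 4 genes, the locus had 84.5 CPM in NM with DMSO, 109.2 CPM in NM with CH223191, 48.9 CPM under 4T1-CM with DMSO and 47.6 CPM under 4T1-CM with CH223191. The summed log2 ratio under 4T1-CM was -0.79 with DMSO (-0.91 to -0.66) and -1.20 with CH223191 (-1.32 to -1.07), so the sum was lower in both comparisons. The sum does not restore reads that the counting may have dropped as shared, nor correct for reads counted more than once. Tnfsf12 made up 76.8% of these reads in NM with DMSO, 64.7% in NM with CH223191, 77.7% under 4T1-CM with DMSO and 77.9% under 4T1-CM with CH223191.

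**Figure D3:**
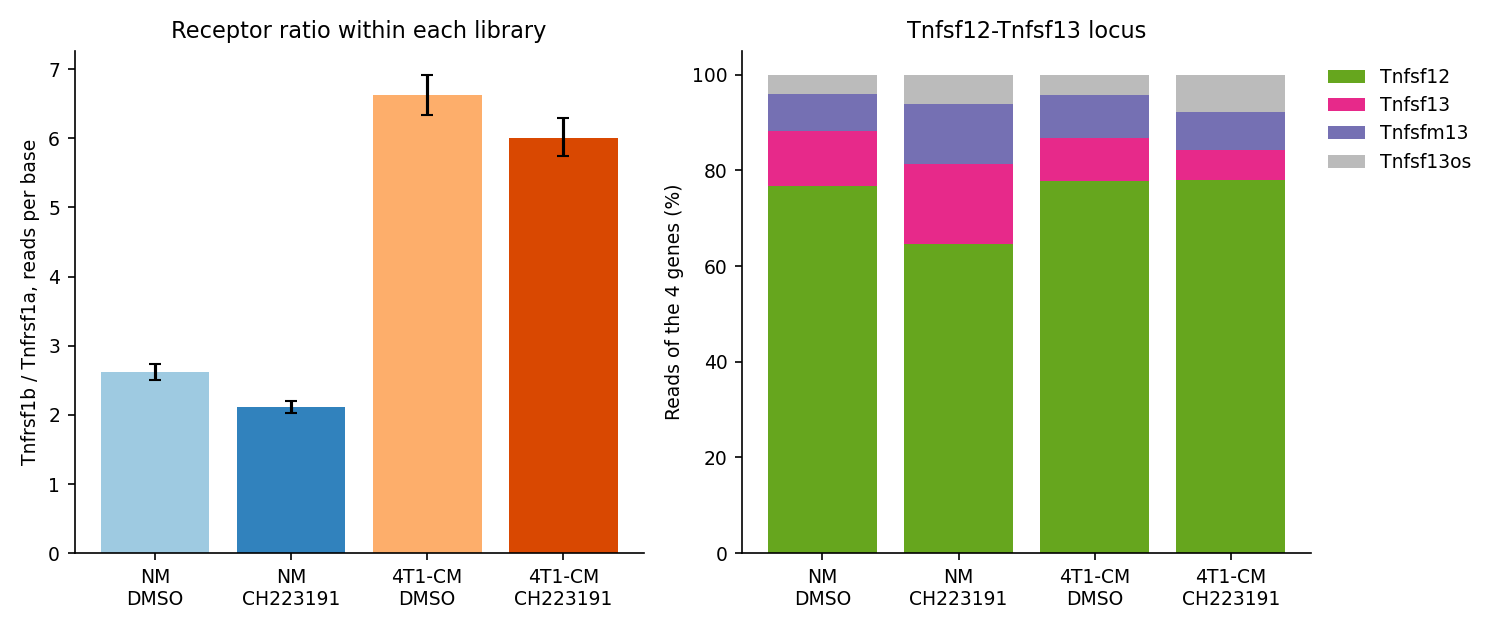
Left, the ratio of Tnfrsf1b to Tnfrsf1a in reads per base within each library, with 95% counting intervals; right, the percent of the reads of Tnfsf12, Tnfsf13, Tnfsfm13 and Tnfsf13os that each gene took in each library. The receptor ratio is 2.11 to 2.62 in the NM libraries and 6.0 to 6.62 in the 4T1-CM libraries, and Tnfsf13 takes its highest share, 16.7%, in NM with CH223191.

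Tnfsf13b encodes BAFF, the B cell survival factor that shares TACI with APRIL. It had 44 reads (2.76 CPM) in NM with DMSO, 42 (2.64 CPM) in NM with CH223191, 72 (4.11 CPM) under 4T1-CM with DMSO and 65 (4.00 CPM) under 4T1-CM with CH223191. Both 4T1-CM libraries were above both NM libraries by a small margin. The log2 ratio was 0.57 with DMSO (0.01 to 1.15) and 0.59 with CH223191 (0.02 to 1.20), and it missed the threshold in the additive edgeR fit (adjusted p = 0.118). The gene lies on chr8:10006467-10039072, on the plus strand, and it is the only kept gene of the 8 for which the fit called no change with the medium. BAFF and APRIL, which share receptors, thus had ratios of opposite sign.

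Among the receptors and ligands that pair with these genes, 5 of 9 had enough reads. Tnfrsf9 alone was at least 2-fold higher in both 4T1-CM comparisons (1 of 5, against 8.19% of all genes), and 0 were lower, against 3.38%. The additive edgeR fit called 2 higher in 4T1-CM (Tnfrsf9 and Tnfrsf14) and 0 lower, against 16.4% and 16.2% of all genes. Fn14 (Tnfrsf12a), the receptor of TWEAK, had 258 reads in NM with DMSO, 415 in NM with CH223191, 266 under 4T1-CM with DMSO and 216 under 4T1-CM with CH223191, highest in NM with CH223191, as Tnfsf13 was. TACI (Tnfrsf13b) had 478, 457, 404 and 419 reads in the same order, with a log2 ratio under 4T1-CM of -0.38 with DMSO (-0.57 to -0.18) and -0.16 with CH223191 (-0.35 to 0.04). BCMA (Tnfrsf17) and the BAFF receptor (Tnfrsf13c) had at most 1 read in any library. Both receptors of LIGHT were present while LIGHT itself was near 0: Tnfrsf14 had 87, 75, 147 and 145 reads and Ltbr 1518, 1484, 1416 and 1333. Lta, the lymphotoxin that also binds both TNF receptors, had at most 8 reads.

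The rest of the family was set beside the 9 genes. Of 12 other ligands, only Tnfsf15 reached 10 reads in a library, and it had 3, 1, 5 and 11. Fasl, Cd40lg, Cd70 and Eda had 0 reads in all 4 libraries. Of 25 other receptor genes, 17 had enough reads, and 5 of these were at least 2-fold higher in both 4T1-CM comparisons, against the 8.19% of all genes, while 0 were lower. They were Tnfrsf9, the death receptor Fas (log2 ratio 1.99 with DMSO and 1.28 with CH223191), Tnfrsf8, which encodes CD30 (1.51 and 1.07), and the mouse receptors Tnfrsf23 (1.03 and 1.47) and Tnfrsf26 (1.47 and 1.53), of which Tnfrsf23 is known as a decoy for TRAIL. The median over the 17 was -0.09 with DMSO and -0.16 with CH223191, and it is the same with Tnfrsf9 at its bound. Of the 17, 8 lay above 0 and 9 below in both comparisons, and the additive edgeR fit called 8 higher and 1 lower in 4T1-CM, against the 16.4% and 16.2% of all genes.

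Of 25 adaptors and signalling genes downstream of the receptors, all with enough reads, 3 were at least 2-fold higher in both 4T1-CM comparisons and 0 lower, against 8.19% and 3.38% of all genes. Traf1, an adaptor of TNFR2 and CD40, had 47 reads in NM with DMSO, 45 in NM with CH223191, 522 under 4T1-CM with DMSO and 423 under 4T1-CM with CH223191 (log2 ratio 3.33 and 3.19). Birc3, the ubiquitin ligase cIAP2, had 239, 272, 1237 and 1159 reads in the same order (2.23 and 2.06), and Cflar, the caspase-8 inhibitor c-FLIP, had 2045, 1906, 5047 and 4833 (1.17 and 1.31). All 3 are genes known to be induced by NF-kB, whose activity and part in these values were not tested. The median of the list was 0.22 with DMSO and 0.09 with CH223191, and the additive edgeR fit called 9 higher and 1 lower, against 16.4% and 16.2% of all genes.

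Of 9 brakes on TNF signalling, 2 were at least 2-fold higher in both comparisons and 0 lower, beside 8.19% and 3.38% of all genes. Nfkbia, the NF-kB inhibitor IkBa, had 267, 268, 1344 and 1258 reads (log2 ratio 2.19 and 2.20), and Tnip3, a partner of A20, had 79, 84, 703 and 538 (3.01 and 2.64). The median of the brakes was 0.14 with DMSO and 0.33 with CH223191, and the additive edgeR fit called 4 higher and 2 lower, beside 16.4% and 16.2% of all genes. Of 9 genes for the shedding and processing of family proteins, 1 was at least 2-fold higher in both comparisons and 0 lower, beside the same 8.19% and 3.38%. The median of this list was 0.62 with DMSO and 0.66 with CH223191, with 7 of 9 above 0, and the additive edgeR fit called 5 higher and 1 lower, beside the same 16.4% and 16.2%. The gene changed in both comparisons was Timp3, an inhibitor of the TNF-releasing protease ADAM17. It had 19 reads in NM with DMSO, 12 in NM with CH223191, 77 under 4T1-CM with DMSO and 28 under 4T1-CM with CH223191 (1.86 and 1.16). Timp3 is also a product of fibroblasts. The summed level of 6 fibroblast markers was 63.0, 30.1, 149.3 and 127.4 CPM in the same order (5 of 6 with enough reads, none at 0 in all libraries). This sum was carried mainly by the collagen genes, and Dcn (35, 45, 172 and 139 reads) was higher in 4T1-CM too. Pdgfra (91, 49, 83 and 70 reads) and Lum (3, 0, 0 and 0) did not follow. The part of these markers in the Timp3 value was not tested.

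Of 11 genes that act on Tnf mRNA, 2 were at least 2-fold higher in both comparisons and 0 lower, again beside 8.19% and 3.38% of all genes. They were Zc3h12a, the endonuclease Regnase-1 (263, 276, 1826 and 1728 reads, log2 ratio 2.66 and 2.61), and Zfp36l1, a relative of tristetraprolin that binds AU-rich elements (66, 61, 229 and 292 reads, 1.65 and 2.22). The median of this list was 0.17 with DMSO and 0.36 with CH223191, and the additive edgeR fit called 2 higher and 1 lower, again beside 16.4% and 16.2% of all genes. Genes of these 4 lists that passed 2-fold in a single comparison are not described.

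**Figure D4:**
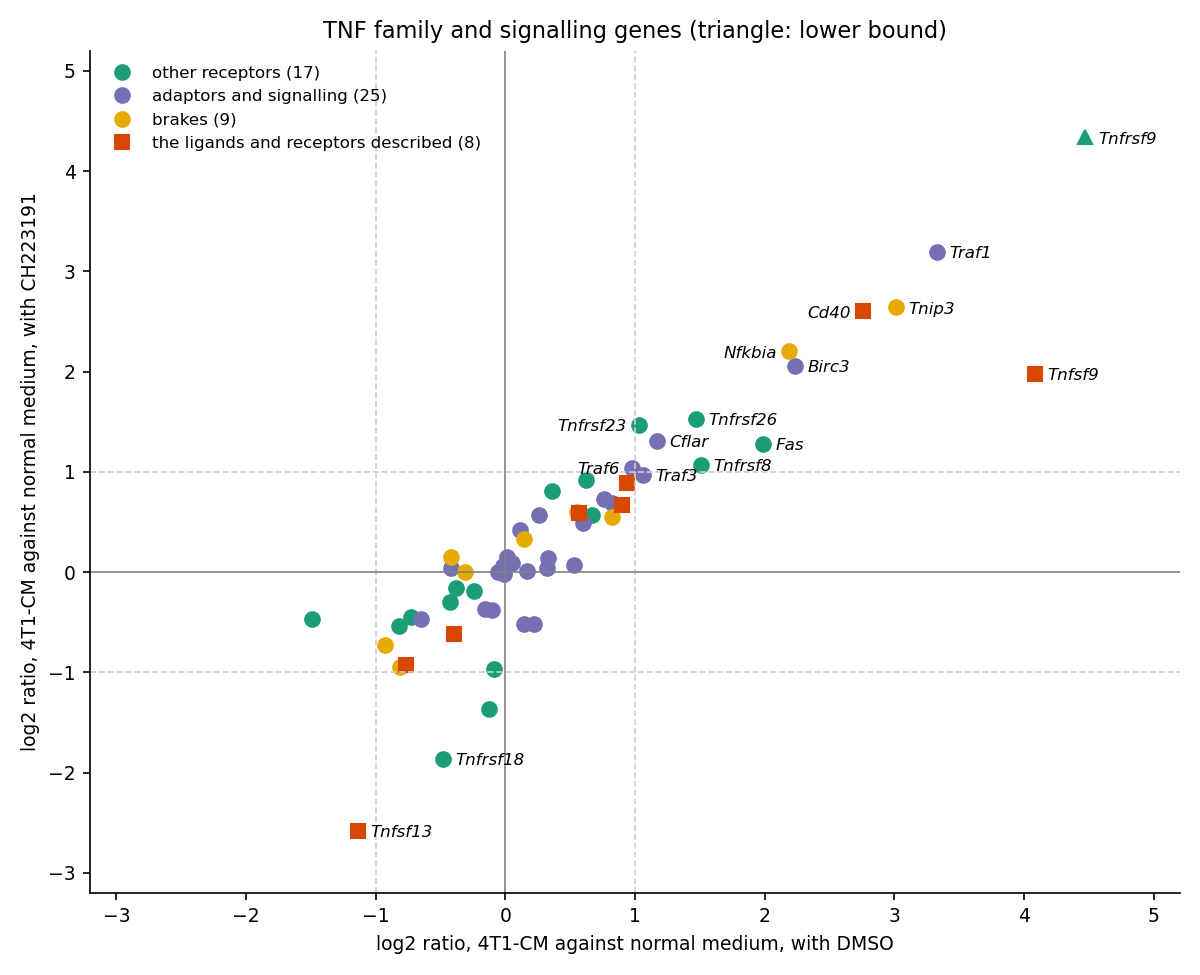
Log2 ratio under 4T1-CM with DMSO (horizontal) against that with CH223191 (vertical) for the 8 genes described (squares), 17 other receptor genes, 25 adaptors and signalling genes and 9 brakes (circles); dashed lines mark 2-fold and the triangle for Tnfrsf9 is a lower bound on both axes. Traf1, Tnip3, Nfkbia, Birc3, Cd40, Tnfsf9 and Tnfrsf9 lie highest, and Tnfsf13 lies lowest on the vertical axis.

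CH223191 against DMSO, which asks what blocking AHR does in either medium, gave smaller differences. In NM, 1 of the 8 genes (Tnfsf9) was at least 2-fold higher, against 4.84% of all genes, and 0 were lower, against 3.31%. In 4T1-CM, 0 were higher, against 2.75%, and 0 lower, against 2.66%. No gene of the 8 was changed in both media, a count that was 0.649% of all genes for higher and 0.481% for lower. The additive edgeR fit called 0 of the 8 with CH223191 in either direction, and 0 at an unadjusted p under 0.05, at adjusted p-values from 0.861 to 0.978, against 0.0729% of all genes called higher and 0.00729% lower. The median log2 ratio of the 8 was 0.17 in NM and -0.09 in 4T1-CM, beside 0.00 over all genes in both.

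The 2-fold difference of Tnfsf9 in NM rests on 3 against 12 reads (log2 ratio 1.84, 0.11 to 4.47, or 1.09 with a prior count of 5), and in 4T1-CM its ratio was -0.25 (-0.81 to 0.31). Tnfsf13 was higher with CH223191 in NM (0.91, 0.62 to 1.20) and lower in 4T1-CM (-0.54, -1.09 to -0.01). The genes that overlap it were also higher with CH223191 in NM, with log2 ratios of 1.06 for Tnfsfm13 and 1.0 for Tnfsf13os. In 4T1-CM the interval of Tnfsfm13 spanned 0 (-0.22, -0.73 to 0.28), and Tnfsf13os was higher (0.84, 0.23 to 1.48), unlike Tnfsf13. For the summed locus the ratio was 0.37 in NM (0.27 to 0.47) and -0.04 in 4T1-CM (-0.18 to 0.10), so the difference in 4T1-CM was within counting error there.

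Tnf was slightly lower with CH223191 in 4T1-CM (-0.33, -0.53 to -0.14), while in NM the interval spanned 0 (-0.10, -0.36 to 0.17). Its response to 4T1-CM differed between CH223191 and DMSO by -0.24, with an interval of -0.56 to 0.09. Tnfrsf1a was higher with CH223191 in NM (0.23, 0.15 to 0.30), and in 4T1-CM its ratio was 0.00 (-0.08 to 0.09). Its response to 4T1-CM differed between CH223191 and DMSO by -0.22 (-0.34 to -0.11). Tnfrsf1b was lower in both media by small amounts, -0.08 in NM (-0.12 to -0.04) and -0.14 in 4T1-CM (-0.17 to -0.11). How far separate cultures differ was not measured. For Tnfsf12, Tnfsf13b and Cd40 the ratios in 4T1-CM were -0.03 (-0.19 to 0.13), -0.04 (-0.55 to 0.46) and 0.07 (-0.38 to 0.53). These intervals exclude a 2-fold difference between the 2 libraries in 4T1-CM in counting terms. In NM the ratios were 0.12 (-0.00 to 0.24), -0.06 (-0.71 to 0.58) and 0.23 (-1.03 to 1.55), and there the interval of Cd40 does not exclude 2-fold.

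**Figure D5:**
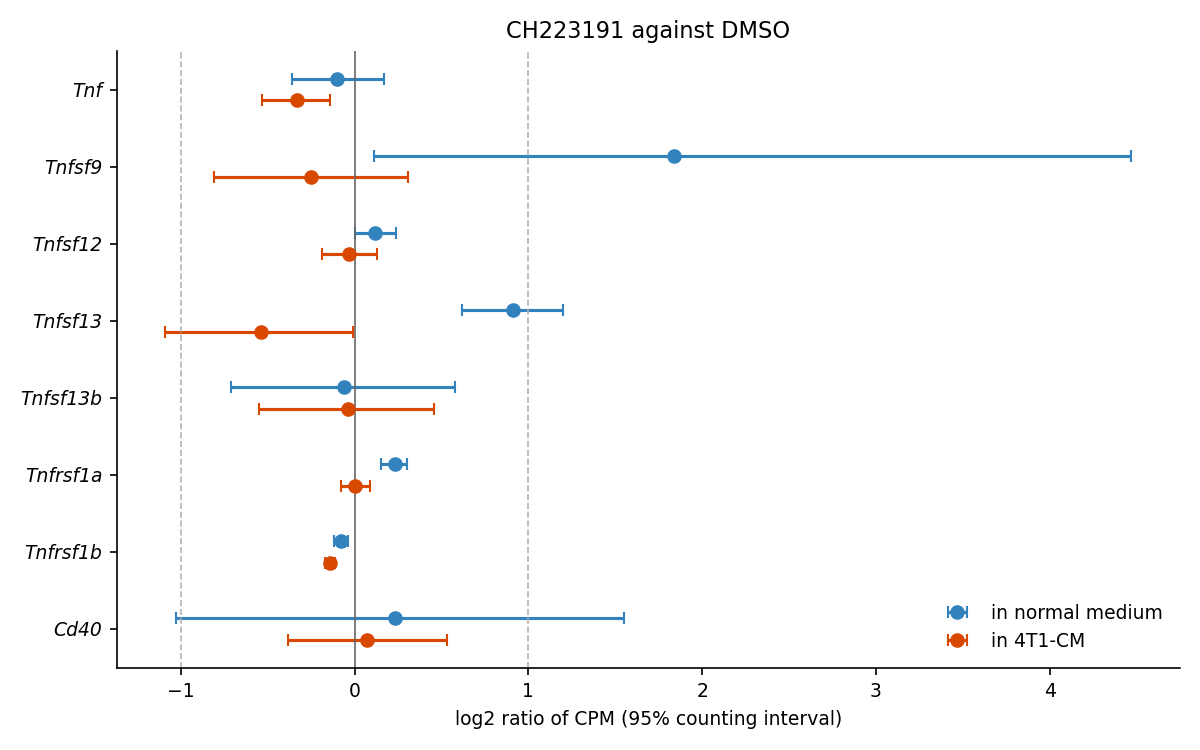
Log2 ratio of CPM with CH223191 over DMSO for the 8 genes, in normal medium (blue) and in 4T1-CM (orange); bars are 95% counting intervals and dashed lines mark 2-fold. Tnfsf9 in normal medium is the only point beyond 2-fold, with 3 reads in its DMSO library, and the points of Tnfsf13 lie on opposite sides of 0.

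For the 3 genes with the widest range over the libraries, the genes of most similar pattern were found among the 8323 genes that averaged 10 CPM or more, by the root mean square difference of log2 CPM after each gene's own mean was subtracted. With 4 libraries many genes lie close, and the measure describes these libraries only. For Cd40 (range 2.83 in log2 CPM) they were Bnip3, Nfil3 and Pou2f2, with differences of 0.02, 0.04 and 0.05. For Tnfsf9 (range 4.07) they were Rtp4, C1ra and Arl5c, with differences of 0.29, 0.43 and 0.44. For Tnfsf13 (range 2.58) they were Pet100, Ighm and Tmem202, with differences of 0.21, 0.22 and 0.22. Ighm, the immunoglobulin heavy chain of B cells, had 317 reads in NM with DMSO, 540 in NM with CH223191, 128 under 4T1-CM with DMSO and 67 under 4T1-CM with CH223191. The other 5 B cell markers had at most 9 reads in any library and none was at 0 in all. Of these, Cd79a (3, 0, 4 and 6 reads) and Cd79b (1, 1, 5 and 9) had more reads in 4T1-CM, unlike Ighm. The summed level of the 6 was 20.2, 34.3, 7.94 and 5.29 CPM. The part of B cells in the level of Tnfsf13 was not tested. The other 5 genes had narrower ranges in log2 CPM, namely 1.02 for Tnfrsf1b, 1.0 for Tnf, 0.93 for Tnfsf12 and 0.63 for both Tnfsf13b and Tnfrsf1a.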

How the data were processed

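Bulk RNA-seq of mouse peritoneal macrophages comprised 4 libraries, 1 per condition. The authors deposited raw read counts per gene (whole numbers, not normalized) and a gene length in bases. The submitters' processing notes name HISAT2 2.0.5 and DESeq2; the annotation and strand setting are not given in the sources used here, so overlapping genes are uncertain. All 9 coordinates are identical to GENCODE M21 on GRCm38. All 4 count columns were matched to a sample by name.

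A gene was kept if any library held 10 reads or more of it (13715 genes). Libraries were scaled by TMM (edgeR 4.0.16, R 4.3.3; factors 0.986 to 1.026), log2 ratios used a prior count of 0.5, intervals were exact Clopper-Pearson or Poisson at 95%, and FPKM used the table's gene lengths. Intervals and floors cover counting error only. With 1 library per condition no pair was tested; the additive edgeR quasi-likelihood fit (Benjamini-Hochberg, threshold 0.05) is an alternative. Scripts were tested on simulated data. Alternatives were DESeq2 1.42.0 size factors, total counts, other filters, protein-coding genes only, a prior count of 5 and a 1.5-fold threshold. Python 3.11.15 with pandas 2.3.3, scipy 1.17.1 and matplotlib 3.10.9 was used. Named from the lists were genes with a 2-fold or larger change that repeated in the other comparison of its pair, and partners of the 9 genes; named besides were the 3 nearest genes of the 3 most variable members and genes that overlap a member. Single list genes with few or 0 reads and markers were named after their values were seen. The members and lists were chosen with earlier results of these data known.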

Additional observations from a re-analysis of the deposited data

Results flagged for a closer look

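Tnfsf13 moved in opposite directions with CH223191 in the 2 media: in normal medium the log2 ratio of CH223191 over DMSO was 0.91, whereas under 4T1-CM it was -0.54. The counting interval left out 0 in both, barely so in 4T1-CM. Summed over the 4 genes of the locus, the ratio was 0.37 in normal medium (0.27 to 0.47) and -0.04 in 4T1-CM (-0.18 to 0.10). The overlapping gene Tnfsf13os had 0.84 in 4T1-CM (0.23 to 1.48). With 1 library per condition the difference between media was not tested. Read-through and antisense genes share 60.0% of the exonic bases of Tnfsf13, and the share of mitochondrial reads was 0.633% with DMSO and 1.17% with CH223191 in normal medium, beside 1.76% and 1.79% in 4T1-CM. The part of either in this result was not tested.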

How the results depend on the processing

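No paired analysis was possible because each condition has 1 library and the labels carry no replicate numbers. DESeq2 size factors, total counts, protein-coding genes alone and a prior count of 5 moved none of the counts of changed members. Of 188 log2 ratios of single members under these settings and the filters, 186 moved by less than the counting interval and 0 reversed. The prior count of 5 lowered the log2 ratios of Tnfsf9 to 3.02 for 4T1-CM with DMSO and 1.09 for CH223191 in normal medium. Both exceptions were Tnfrsf1b with total counts, at 0.90 for 4T1-CM with DMSO and -0.14 for CH223191 in normal medium. Those scalings moved the median of all genes by at most 0.05.

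With no filter on low counts, Tnfsf14, with 0 to 2 reads, raised the count higher in 4T1-CM with DMSO to 3, that lower in 4T1-CM with CH223191 to 2, that higher with CH223191 in normal medium to 2 and that lower with CH223191 in 4T1-CM to 1. With at least 10 reads asked in every library, Tnfsf9 dropped out, which left 1 higher in 4T1-CM with DMSO, 1 with CH223191 and 1 in both, and 0 higher with CH223191 in normal medium. At 1.5-fold the counts were 4 higher and 2 lower in 4T1-CM with DMSO, 5 and 3 with CH223191, 4 and 2 in both, and 2 higher with CH223191 in normal medium. No share of all genes at 1.5-fold is given, so these counts show only how the threshold moves them. The additive fit gave 4 higher and 3 lower for 4T1-CM, because it pools the libraries and asks for no fold. Leaving out a library would leave a condition with none, so it was not run. Depth limits Tnfsf14, Tnfsf9, Tnfsf13b and Cd40, which had under 100 reads in every library.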
